A study of Mus musculus with 15 samples.

Results

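Synapses, axons, and glia are where the 6 genes described here are best known: *Lrrc4c*, *Rims3*, *Ppp1r9a*, *Slc1a3*, *Fstl4*, and *Spock1*. Their transcripts were followed in macrophages sorted from the small intestine of adult male wild-type C57BL/6 mice and in blood monocytes of the same strain. The genes were listed by symbol and matched to the Ensembl identifiers of the count table, where they are 6 of 19456 genes. They were chosen on their values in these same libraries, so that the order of the populations is a description, and no p-value is given for any of the 6. RNA sequencing covered 15 libraries: 3 of Ly6Chi blood monocytes and 4 each of macrophages lacking Tim-4 and CD4 (Tim-4-CD4-), macrophages with CD4 alone (Tim-4-CD4+), and macrophages with both proteins (Tim-4+CD4+). No genotype or treatment separated the groups, which differ in tissue and in the gate used to sort them. The macrophages were CD45+CD11b+CD64+Ly6C-MHCII+ cells from digested gut wall (lamina propria and muscularis) and the monocytes came from undigested blood, so that in any comparison with monocytes cell type, tissue, and preparation cannot be told apart. Each library was made from the cells of 3 pooled mice, or 4 mice for monocyte replicate 2, so that a library is a pool and not an animal.

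Macrophages of the gut wall lie close to enteric neurons and glia, and macrophages of many tissues transcribe some genes first described in the nervous system. At a synapse, adhesion proteins hold the membranes of the partner cells together, the active zone of the presynaptic terminal releases vesicles, and actin-rich spines receive the transmitter. Glutamate is then cleared by transporters on glia, and secreted proteoglycans and glycoproteins fill the space around the cells. *Lrrc4c* encodes netrin-G ligand 1 (NGL-1), a postsynaptic adhesion protein with leucine-rich repeats that binds netrin-G1 on axons. *Rims3* encodes a short member of the RIM family of active zone proteins. *Ppp1r9a* encodes neurabin-1, which binds actin and brings protein phosphatase 1 to dendritic spines. *Slc1a3* encodes the glutamate and aspartate transporter of astrocytes (GLAST, or EAAT1). *Fstl4* encodes a follistatin-like protein of the SPARC-related group, and *Spock1* encodes testican-1, a secreted heparan sulfate and chondroitin sulfate proteoglycan.

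In the mouse genome GRCm38 with the GENCODE M21 annotation, *Lrrc4c* lies on chromosome 2 from 96318169 to 97631666 on the plus strand. *Rims3* lies on chromosome 4 from 120854816 to 120896579 (plus), *Ppp1r9a* on chromosome 6 from 4902917 to 5165661 (plus), and *Fstl4* on chromosome 11 from 52764634 to 53188538 (plus). *Spock1* lies on chromosome 13 from 57421195 to 57908332 (minus) and *Slc1a3* on chromosome 15 from 8634124 to 8710764 (minus). The values are reads on exons, and no exon of the 6 overlaps an exon of another annotated gene. Other annotated genes lie within the spans of *Lrrc4c*, *Ppp1r9a*, *Slc1a3*, and *Fstl4*. Only *Gm26814* and *Gm26736*, in *Ppp1r9a*, and *Gm37310*, in *Slc1a3*, are in the count table.

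The 250 bases before the start are shown for *Lrrc4c*, *Spock1*, and *Slc1a3*, whose transcripts were at 0 or 1 read in each monocyte library and whose window lies outside the annotated transcript. The sequences are from RefSeq on GRCm38.p6 and are written 5′ to 3′ on the strand of the gene, with matches to searched motifs in capitals. The windows are chr2:96317919-96318168 (+), chr13:57908333-57908582 (-), and chr15:8710808-8711057 (-).
Lrrc4c: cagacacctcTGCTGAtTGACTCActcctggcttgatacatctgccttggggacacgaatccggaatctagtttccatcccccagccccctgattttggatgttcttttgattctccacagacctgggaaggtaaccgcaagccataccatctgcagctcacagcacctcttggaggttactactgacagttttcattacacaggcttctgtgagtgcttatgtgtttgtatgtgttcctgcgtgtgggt
Spock1: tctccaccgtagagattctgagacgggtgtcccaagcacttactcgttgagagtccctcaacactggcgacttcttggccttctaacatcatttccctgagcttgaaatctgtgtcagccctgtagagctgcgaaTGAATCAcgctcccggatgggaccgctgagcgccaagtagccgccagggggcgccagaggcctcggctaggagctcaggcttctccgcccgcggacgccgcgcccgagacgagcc
Slc1a3: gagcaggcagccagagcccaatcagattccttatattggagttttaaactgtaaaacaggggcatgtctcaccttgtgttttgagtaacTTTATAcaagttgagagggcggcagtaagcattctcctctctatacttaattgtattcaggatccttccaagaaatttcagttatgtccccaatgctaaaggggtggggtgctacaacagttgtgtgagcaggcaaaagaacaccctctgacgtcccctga
Capitals mark an AP-1 motif (TGANTCA) in the *Lrrc4c* and *Spock1* windows, preceded in *Lrrc4c* by a MAF motif (TGCTGA), and a TATA box motif (TATAAA, on the reverse strand) in that of *Slc1a3*. Both strands were searched, and the share of all 32851 RefSeq promoter windows of the same length with a match was 6.75% for TGANTCA, 16.1% for TGCTGA, and 12.4% for TATAAA. Of the other motifs searched, the ETS core GGAAGT (19.7% of windows) matched the *Rims3* window and the E-box CACGTG (6.02%) matched window 1 of *Ppp1r9a*. Window 2 of *Ppp1r9a* held the MAF motif TGCTGA on the reverse strand. The PU.1 motif GAGGAAGT (2.44%), in which GGAAGT is contained, and the REST motif stretch TTCAGCACC (0.301%) matched none of the 6, which says only that these letters are not in these windows. The 3 printed windows differed in composition, with 4 CpG dinucleotides in that of *Lrrc4c*, 20 in that of *Spock1*, and 2 in that of *Slc1a3*, against a median of 6 over all windows. A match is a run of letters and does not show that a factor binds there.

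Between 39388763 and 151510641 reads were counted on genes in each library (median 63249039), and levels are given as CPM, the counts scaled to the size of the library with TMM factors. *Timd4*, the gene of Tim-4, followed the sort, at 336 to 390 CPM in the 4 Tim-4+CD4+ libraries and at no more than 4.47 CPM in any other. *Cd4* averaged 0.207 CPM in monocytes and 22.9, 531, and 816 CPM in the subsets, taken here and below in the order without either protein, with CD4 alone, and with both. All 6 genes were among the 15802 that passed the filter on low counts, which asked for about 0.158 CPM in at least 3 libraries. *Rims3* and *Ppp1r9a* were above this level in all 15 libraries, *Lrrc4c* and *Spock1* in all 12 macrophage libraries and in no monocyte library, and *Slc1a3* and *Fstl4* in every Tim-4+CD4+ library but in only 2 and 1 of the Tim-4-CD4- libraries. The last 4 genes thus passed through the groups in which they are high.

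The adhesion gene *Lrrc4c* was at 60.9, 44.7, 36.0, and 55.5 CPM in the Tim-4+CD4+ libraries, replicates 1 to 4. It was at 29.4, 35.4, 20.4, and 43.0 CPM in the Tim-4-CD4+ libraries and at 13.2, 6.4, 10.5, and 12.8 CPM in the Tim-4-CD4- libraries. A single read was counted in each monocyte library, which corresponds to between 0.00708 and 0.0186 CPM. Every macrophage library was far above the monocytes, and the Tim-4-CD4- libraries lay below all others from macrophages. The ranges of the CD4+ subsets overlapped, because Tim-4+CD4+ replicate 3 was below Tim-4-CD4+ replicate 4. The means were 10.7 ± 3.12, 32.0 ± 9.52, and 49.3 ± 11.1 CPM (SD, n = 4 each) in the 3 subsets, in the order given for *Cd4*. On the log2 scale, Tim-4-CD4+ macrophages were 1.58 ± 0.24 (SE) above Tim-4-CD4- macrophages, and Tim-4+CD4+ macrophages were a further 0.62 ± 0.23 above Tim-4-CD4+ macrophages. The ratio of the Tim-4+CD4+ mean to the pooled monocyte rate (all monocyte reads over the summed library size) was 4891. Its 95% counting interval was 1673 to 23715 because it rests on 3 monocyte reads. The mean of the monocyte libraries, used for the percentages below, was 0.0118 CPM and weighs each library alike.

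The presynaptic gene *Rims3* was measured in every population. In the Tim-4+CD4+ libraries it was at 50.8, 38.7, 43.1, and 49.4 CPM, and in the Tim-4-CD4+ libraries at 10.9, 15.2, 13.3, and 19.0 CPM. The Tim-4-CD4- libraries held 5.55, 6.05, 4.61, and 4.94 CPM, and the monocyte libraries 3.27, 4.43, and 5.37 CPM. The 3 macrophage subsets were separated with no overlap, whereas Tim-4-CD4- macrophages and monocytes overlapped. Their means, 5.29 ± 0.638 CPM (SD, n = 4) and 4.35 ± 1.05 CPM (SD, n = 3), did not differ beyond the spread of the libraries, with a log2 difference of 0.30 ± 0.19 (SE). The log2 step from the Tim-4-CD4- to the Tim-4-CD4+ subset was 1.46 ± 0.17 and that from the Tim-4-CD4+ to the Tim-4+CD4+ subset was 1.64 ± 0.17, so that both steps were of a similar size. The monocyte level was 9.57% of the Tim-4+CD4+ level for *Rims3*, against 2.85% for *Ppp1r9a* and 0.0239% for *Lrrc4c*. The other 3 genes had no monocyte read.

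*Ppp1r9a*, the spine gene, was at 27.0, 39.1, 51.5, and 44.5 CPM in the Tim-4+CD4+ libraries. It was at 17.6, 10.9, 8.87, and 10.1 CPM in Tim-4-CD4+ macrophages, at 5.07, 4.57, 9.38, and 5.49 CPM in Tim-4-CD4- macrophages, and at 0.822, 1.73, and 0.91 CPM in monocytes. The Tim-4+CD4+ libraries were above all others and the monocytes below all others. The Tim-4- subsets overlapped in the region of Tim-4-CD4- replicate 3. The means were 1.15 ± 0.502 CPM (SD, n = 3) in monocytes and 6.13 ± 2.2, 11.9 ± 3.91, and 40.5 ± 10.4 CPM (SD, n = 4) in the subsets, again in the order given for *Cd4*, and the log2 differences between successive subsets were 0.95 ± 0.28 and 1.77 ± 0.28 (SE). Macrophages of the Tim-4-CD4- subset were 2.39 ± 0.34 above monocytes on this scale.

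The glial transporter gene *Slc1a3* was present at a low level. It was at 5.25, 4.65, 5.4, and 4.81 CPM in the Tim-4+CD4+ libraries, at 0.458, 0.683, 0.767, and 0.965 CPM in Tim-4-CD4+ macrophages, and at 0.11, 0.369, 0.0862, and 0.181 CPM in Tim-4-CD4- macrophages. No read was counted in the monocytes, where a count of 0 allows up to 0.0213 to 0.0557 CPM depending on the library. The 4 populations did not overlap in any pair, and the 4 Tim-4+CD4+ libraries lay close together, at 5.03 ± 0.356 CPM (SD, n = 4). The values below them rest on few reads, with 39 in all over the Tim-4-CD4- libraries and 255 over the Tim-4-CD4+ libraries, against 1705 over the Tim-4+CD4+ libraries. The log2 step from the Tim-4-CD4- to the Tim-4-CD4+ subset was 1.92 ± 0.38 (SE), or 2.55 without Tim-4-CD4- replicate 2, and that from the Tim-4-CD4+ to the Tim-4+CD4+ subset was 2.79 ± 0.35. Taken against the limit of 3 reads per library, the Tim-4+CD4+ level was at least 142-fold higher than that of monocytes.

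The genes of secreted proteins had the steepest profiles. *Spock1* was at 23.5, 29.5, 35.8, and 34.9 CPM in the Tim-4+CD4+ libraries, at 3.41, 4.0, 2.69, and 3.26 CPM in Tim-4-CD4+ macrophages, and at 0.31, 0.385, 0.388, and 1.09 CPM in Tim-4-CD4- macrophages, with no read in monocytes. No pair of populations overlapped, and Tim-4-CD4- replicate 4 stood above the other 3 of its subset. The successive log2 steps were 2.67 ± 0.30 and 3.22 ± 0.27 (SE), and the Tim-4+CD4+ mean of 30.9 ± 5.68 CPM (SD, n = 4) was 57.0 times that of Tim-4-CD4- macrophages and at least 874-fold higher than that of monocytes. *Fstl4* was at 4.73, 3.68, 4.26, and 6.85 CPM in the Tim-4+CD4+ libraries and at 0.275, 0.379, 0.128, and 0.459 CPM in Tim-4-CD4+ macrophages. It was at 0.11, 0, 0.108, and 0.233 CPM in Tim-4-CD4- macrophages, which is 20 reads over the 4 libraries, and at 0 in the monocytes. The Tim-4+CD4+ libraries were all above the rest, and the low values of the Tim-4- subsets overlapped. The log2 difference between Tim-4+CD4+ macrophages and the Tim-4-CD4+ subset was 3.96 ± 0.54 (SE), and that between the Tim-4- subsets was 1.55 ± 0.62, or 2.14 without Tim-4-CD4- replicate 4. These levels are of bulk RNA, in which fewer cells with a transcript and less RNA in each cell cannot be told apart.

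**Figure D1:**
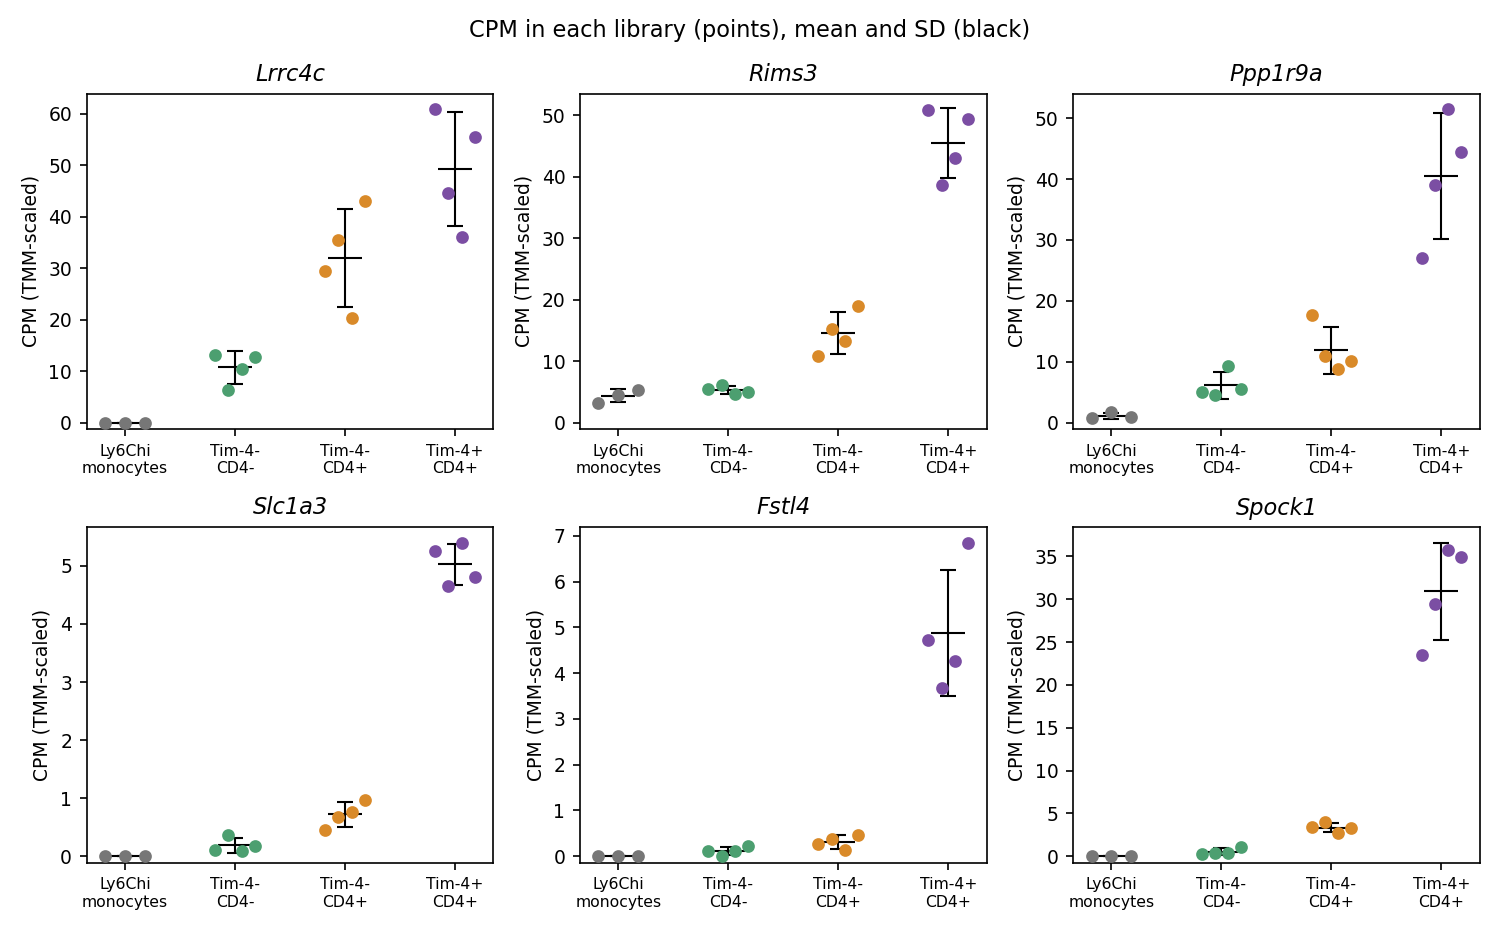
Level of each of the 6 genes in every library, as TMM-scaled CPM on linear vertical axes that differ between genes, by population on the horizontal axes. Points are libraries, with the mean and SD in black. The Tim-4+CD4+ libraries lie above those of the other populations for each gene but *Lrrc4c*, for which the CD4+ subsets overlap.

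Set side by side, the 6 genes were all ordered alike in their mean levels, with Tim-4+CD4+ highest and Tim-4-CD4- the lowest of the macrophages, a pattern that was known when they were chosen. In the comparison of Tim-4-CD4+ with Tim-4-CD4- macrophages, 4 of the 6 were higher without overlap of the libraries, *Ppp1r9a* and *Fstl4* being the exceptions, where 9.16% of all genes tested were higher without overlap. Between Tim-4+CD4+ macrophages and the Tim-4-CD4+ subset it was 5 of 6, without *Lrrc4c*, against 5.51% of all genes, and between Tim-4+CD4+ macrophages and the Tim-4-CD4- subset it was 6 of 6 against 12.5%. Against monocytes, 4, 6, and 6 of the genes were higher without overlap in the 3 subsets, where the shares of all genes were 36.7%, 37.9%, and 37.5%. Since these contrasts served to choose the genes, nothing is read from the shares. The 3 comparisons between subsets share their libraries, as do the 3 with monocytes.

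**Figure D2:**
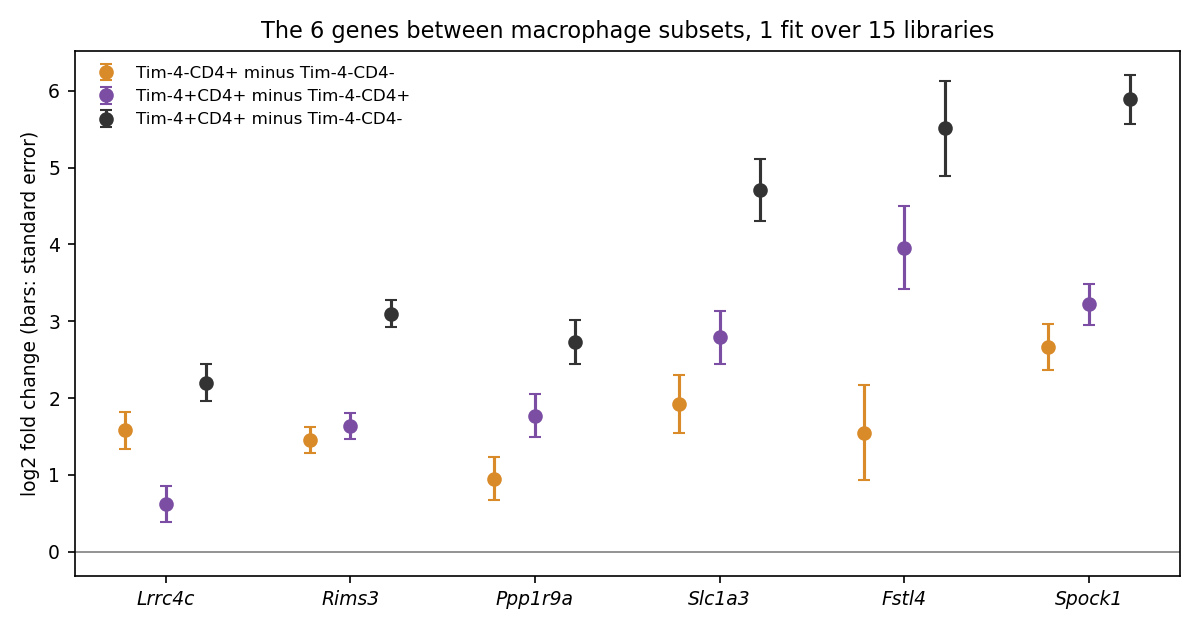
Fitted log2 fold change of each of the 6 genes (vertical axis; genes on the horizontal axis) between macrophage subsets, with points for the estimates, bars for the SE, and 1 color per comparison. The Tim-4+CD4+ minus Tim-4-CD4- values run from 2.20 for *Lrrc4c* to 5.89 for *Spock1*.

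The genes differed in how the increase was divided between the steps. With the mean of Tim-4+CD4+ macrophages set to 100%, Tim-4-CD4+ macrophages stood at 65.0% for *Lrrc4c*, 32.1% for *Rims3*, 29.3% for *Ppp1r9a*, 14.3% for *Slc1a3*, 10.8% for *Spock1*, and 6.36% for *Fstl4*. The share in Tim-4-CD4- macrophages was 21.8% for *Lrrc4c*, between 11.6% and 15.1% for *Rims3* and *Ppp1r9a*, and from 1.76% to 3.71% for the other 3. The sort markers bracketed these values in Tim-4-CD4+ macrophages, with *Cd4* at 65.0% and *Timd4* at 0.479%. All 6 genes were thus at a larger share of their Tim-4+CD4+ level in both Tim-4- subsets than *Timd4*, which was at 0.313% in Tim-4-CD4- macrophages.

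**Figure D3:**
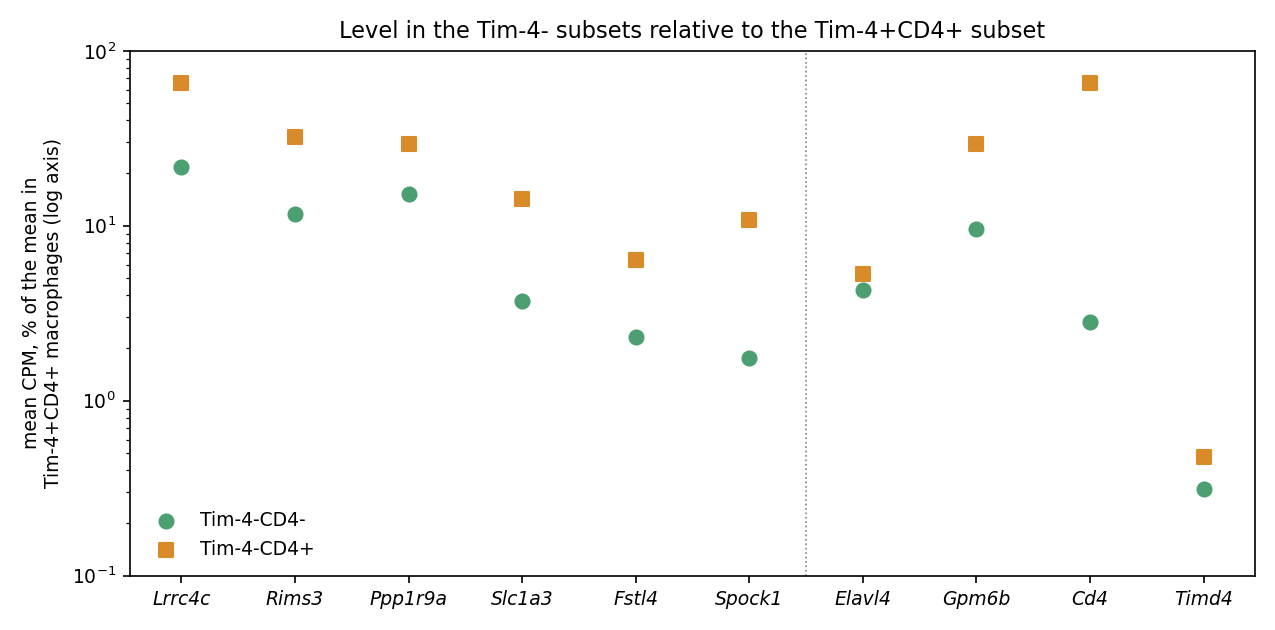
Mean CPM of the Tim-4-CD4- (circles) and Tim-4-CD4+ (squares) libraries as a percentage of the Tim-4+CD4+ mean (vertical axis, log scale) for the 6 genes, left of the dotted line, and for *Elavl4*, *Gpm6b*, *Cd4*, and *Timd4*. *Lrrc4c* and *Cd4* both stood at 65.0% in Tim-4-CD4+ macrophages, and *Fstl4* was the lowest of the 6 genes there at 6.36%.

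Levels can be compared between genes only per length. As CPM per kilobase of merged exons in Tim-4+CD4+ macrophages, the order was *Lrrc4c* at 10.7 ± 2.4 (SD, n = 4), *Rims3* at 5.71 ± 0.708, *Spock1* at 3.7 ± 0.679, *Ppp1r9a* at 2.79 ± 0.714, *Fstl4* at 1.11 ± 0.316, and *Slc1a3* at 0.589 ± 0.0417. On this length, *Spock1* and *Ppp1r9a* differed by little more than the SD of either gene. The gaps depended on the length used. With the longest transcript as the length, *Rims3* was at 6.99, *Spock1* at 6.7, and *Ppp1r9a* at 4.24, and the last pair was level, at 1.11 and 1.13. In Tim-4-CD4- macrophages *Lrrc4c* still led per kilobase of merged exons, at 2.32, followed by *Rims3* at 0.663 and *Ppp1r9a* at 0.422. *Spock1* was at 0.0649, *Fstl4* at 0.0257, and *Slc1a3* at 0.0218. In monocytes *Rims3* led at 0.546, and *Ppp1r9a* followed at 0.0795.

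Markers of the cells that normally carry these genes were read beside them. Of 18 listed enteric neuron markers, 14 were measured, and 12 of these were below 1 CPM in every macrophage library. Their summed level was 0.725 to 1.43 CPM in monocytes, 6.77, 1.41, 1.49, and 0.854 CPM in the Tim-4-CD4- libraries, 1.58, 0.607, 1.05, and 3.87 CPM in the Tim-4-CD4+ libraries, and 4.34, 6.36, 12.1, and 4.36 CPM in the Tim-4+CD4+ libraries. The subset medians were 1.45, 1.31, and 5.36 CPM, but Tim-4-CD4- replicate 1 lay above 3 of the 4 Tim-4+CD4+ libraries. The RNA-binding protein gene *Elavl4* made up much of the sum in Tim-4+CD4+ macrophages, at 2.97, 5.57, 4.12, and 2.87 CPM there. Without *Elavl4*, left out after its values were seen, the sums of the other 13 were 1.37, 0.792, 7.94, and 1.49 CPM in the Tim-4+CD4+ libraries. They were 0.621 to 6.55 CPM with neither protein and 0.379 to 3.61 CPM with CD4 alone. The subsets overlapped in these sums, and because of that choice nothing is read from the overlap. *Elavl4* itself rose in Tim-4+CD4+ over Tim-4-CD4+ macrophages by 4.24 ± 0.44 on the log2 scale (adjusted p = 3.3e-05, edgeR) and was described after its values were seen. The defining neuronal genes *Uchl1* and *Tubb3* were at most at 0.858 and 0.712 CPM in any macrophage library. *Scg2*, besides *Elavl4* the only listed neuron marker above 1 CPM in any macrophage library, reached 2.48 CPM in Tim-4+CD4+ replicate 3, with means of 0.156, 0.196, and 0.672 CPM. The neuron marker sum was highest among Tim-4-CD4- libraries in replicate 1, where *Lrrc4c* was the highest of its subset (13.2 CPM), *Spock1* the lowest (0.31 CPM), and the other 4 genes in between. It was highest of all in Tim-4+CD4+ replicate 3, where *Ppp1r9a* (51.5 CPM), *Slc1a3* (5.4 CPM), and *Spock1* (35.8 CPM) were the highest of their subset, *Lrrc4c* the lowest (36.0 CPM), and *Rims3* and *Fstl4* in between.

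Enteric glia and Schwann cell markers were measured for 11 of 13, and 8 of them were below 1 CPM in every macrophage library. Their sum had a median of 9.17 CPM in monocytes and ran from 12.1 to 16.4, 14.3 to 18.8, and 17.5 to 22.4 CPM in the 3 subsets. Most of it was *Erbb3*, at means of 8.51 CPM in monocytes and 11.1, 13.8, and 11.2 CPM in the subsets, and *Gpm6b*, at 0.0127, 0.588, 1.81, and 6.15 CPM. With *Erbb3* and *Gpm6b* left out after their values were seen, the other 9 summed to 2.29 to 2.72, 1.17 to 2.4, and 1.64 to 4.05 CPM. These ranges overlapped. *Sox10*, the defining transcription factor of enteric glia, averaged 0.321, 0.188, and 0.577 CPM, and *S100b* averaged 0.193, 0.06, and 0.148 CPM. *Gpm6b*, a proteolipid gene of neurons and glia also named after its values were seen, rose at both steps (log2 1.63 ± 0.26 and 1.76 ± 0.25, adjusted p = 0.00071 and 0.00037, edgeR), and its means had the order of the 6 genes. Marker sums of other lineages were read in the same way. Summed mesenchyme and smooth muscle markers ran from 86.2 to 131, 92.5 to 117, and 124 to 182 CPM, and endothelial markers from 13.3 to 32.0, 15.8 to 24.1, and 35.1 to 53.4 CPM. The higher endothelial sum in Tim-4+CD4+ macrophages was *Esam*, at means of 3.29, 9.37, and 25.5 CPM, and the other 6 genes summed to 10.2 to 27.9, 6.81 to 14.3, and 11.4 to 19.7 CPM, with overlap. Granulocyte and mast cell markers summed to 5.98 to 9.44, 8.87 to 10.4, and 11.2 to 17.4 CPM, nearly all of it *Siglecf*, at means of 7.01, 9.22, and 13.7 CPM. The other 7 summed to 0.365 to 1.01, 0.152 to 0.392, and 0.113 to 0.818 CPM. The sort had excluded cells that stained for Siglec F, Ly6G, TCRβ, or B220. T cell, B and plasma cell, and epithelial marker sums overlapped between Tim-4+CD4+ and at least 1 other subset. The B and plasma cell sums were the largest of these, at 288 to 432, 273 to 413, and 245 to 436 CPM, against 8.48 to 10.6 CPM in monocytes. Most of this was *Jchain*, at means of 297, 292, and 279.9 CPM in the subsets. Dendritic cell markers were highest in Tim-4-CD4- macrophages, at 68.7 to 143 CPM. The part of these cells in the levels of the 6 genes was not tested.

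The closest relatives of the 6 genes were read in the same way. Of 17 paralogs listed, 13 were measured and 8 passed the filter on low counts. *Ppp1r9b*, which encodes spinophilin, was abundant in all populations, at 619 CPM in monocytes and 529, 512, and 536 CPM in the 3 subsets, and its log2 difference between Tim-4+CD4+ macrophages and the Tim-4-CD4- subset was 0.02 ± 0.08 (SE; adjusted p = 0.90, edgeR). The neutral amino acid transporter gene *Slc1a5* fell slightly in Tim-4+CD4+ compared with Tim-4-CD4- macrophages (log2 -0.25 ± 0.09, adjusted p = 0.048, edgeR), from 65.0 to 54.7 CPM. It was the only 1 of the 8 that passed the edgeR test in any comparison between subsets, and the call was lost under every alternative but the block by description numbers and leaving out Tim-4+CD4+ replicate 1, with adjusted p from 0.0077 to 0.17. The main astrocytic glutamate transporter *Slc1a2* averaged 0.564, 0.553, and 0.257 CPM, in the opposite order to *Slc1a3*, but did not pass (log2 -1.13 ± 0.43 between Tim-4+CD4+ macrophages and the Tim-4-CD4- subset, adjusted p = 0.072, edgeR; 0.0453 by DESeq2). *Lrrc4* was between 0.113 and 0.199 CPM, *Fstl1* between 1.77 and 3.0 CPM, *Fstl3* between 0.371 and 0.61 CPM, *Spock2* between 0.423 and 0.896 CPM, and *Slc1a4* between 0.315 and 0.566 CPM in the subset means. Against monocytes *Fstl1* rose in Tim-4+CD4+ macrophages (log2 7.33 ± 0.59, adjusted p = 8.3e-09, edgeR). Its 5 monocyte reads were all in replicate 2, and the value was 10.83 without this library and 6.58 without monocyte replicate 1. In the same comparison *Spock2* rose (3.17 ± 0.74, adjusted p = 0.0011, edgeR; 4.14 without monocyte replicate 3), and *Fstl3* fell (-1.57 ± 0.32, adjusted p = 3.8e-04). The long RIM gene *Rims1* had 0, 2, 23, and 7 reads over all libraries of monocytes and the 3 subsets, and *Rims4*, like *Rims3* a short form, had 0, 0, 4, and 23. These and *Lrrc4b*, *Slc1a1*, and *Spock3* were too low to be tested.

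Binding partners were looked up after the values of the 6 genes had been seen. *Ntng1*, the gene of the netrin-G1 that NGL-1 binds, had 0, 3, 25, and 8 reads in the 4 populations and was not tested. The gene of the related netrin-G2, *Ntng2*, which is bound by a different ligand, was at 55.9 CPM in monocytes and at 27.8, 32.4, and 34.2 CPM in the subsets, with no call between Tim-4+CD4+ macrophages and the Tim-4-CD4- subset (adjusted p = 0.18, edgeR), except without Tim-4+CD4+ replicate 3 (0.0411). *Rab3a*, a vesicle GTPase that binds the long RIM proteins, was at 5.25 CPM in monocytes and at 5.34, 5.47, and 6.48 CPM in the subsets (adjusted p = 0.22). Neurabin-1 brings protein phosphatase 1 to spines, and the genes of the catalytic subunits of this phosphatase did not move as a group. *Ppp1ca* was at 149, 125, and 118 CPM and fell in Tim-4+CD4+ compared with Tim-4-CD4- macrophages (log2 -0.34 ± 0.08, adjusted p = 0.0056, edgeR). *Ppp1cb* also fell (-0.36 ± 0.11, adjusted p = 0.026, edgeR). The call for *Ppp1cb* was lost with only the populations compared (adjusted p = 0.0586, edgeR) and without Tim-4-CD4- replicate 2 (0.0589), 3 (0.0578), or 4 (0.0742). *Ppp1cc* was at 47.1, 47.5, and 46.2 CPM (adjusted p = 0.84). *Glul*, the glutamine synthetase that uses the glutamate taken up by glia, was at 269 CPM in monocytes and 332, 340, and 367 CPM in the subsets (log2 0.15 ± 0.11, adjusted p = 0.39).

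To set the 6 genes in their pathways, 194 other genes were listed under 7 headings, of which 160 were measured and 125 tested. In Tim-4+CD4+ compared with Tim-4-CD4- macrophages, 21 of the 125 rose and 23 fell (16.8% and 18.4%), where 11.3% of all genes tested rose and 11.9% fell, and their median log2 difference was 0.14 against 0 for all genes. In Tim-4-CD4+ compared with Tim-4-CD4- macrophages, 13 rose and 10 fell (10.4% and 8.0%, against 4.52% and 5.53% of all genes). From the Tim-4-CD4+ to the Tim-4+CD4+ subset, 6 rose and 5 fell (4.8% and 4.0%, against 2.07% and 1.34%). The listed neural genes therefore moved in both directions, at shares above those of all genes in each comparison of subsets, and no test of that excess was made. The lists were drawn up with earlier results of these data known, so that nothing is read from the shares here or below. The large differences were with monocytes: 73, 76, and 79 of the 125 rose in the 3 subsets, where 37.3%, 39.1%, and 39.5% of all genes rose, and 23, 27, and 28 fell, where 28.1%, 30.7%, and 31.3% of all genes fell. The median log2 differences were 1.73, 1.91, and 2.19, or 1.64, 1.61, and 1.9 with the genes that had no monocyte read set to their bound.

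**Figure D4:**
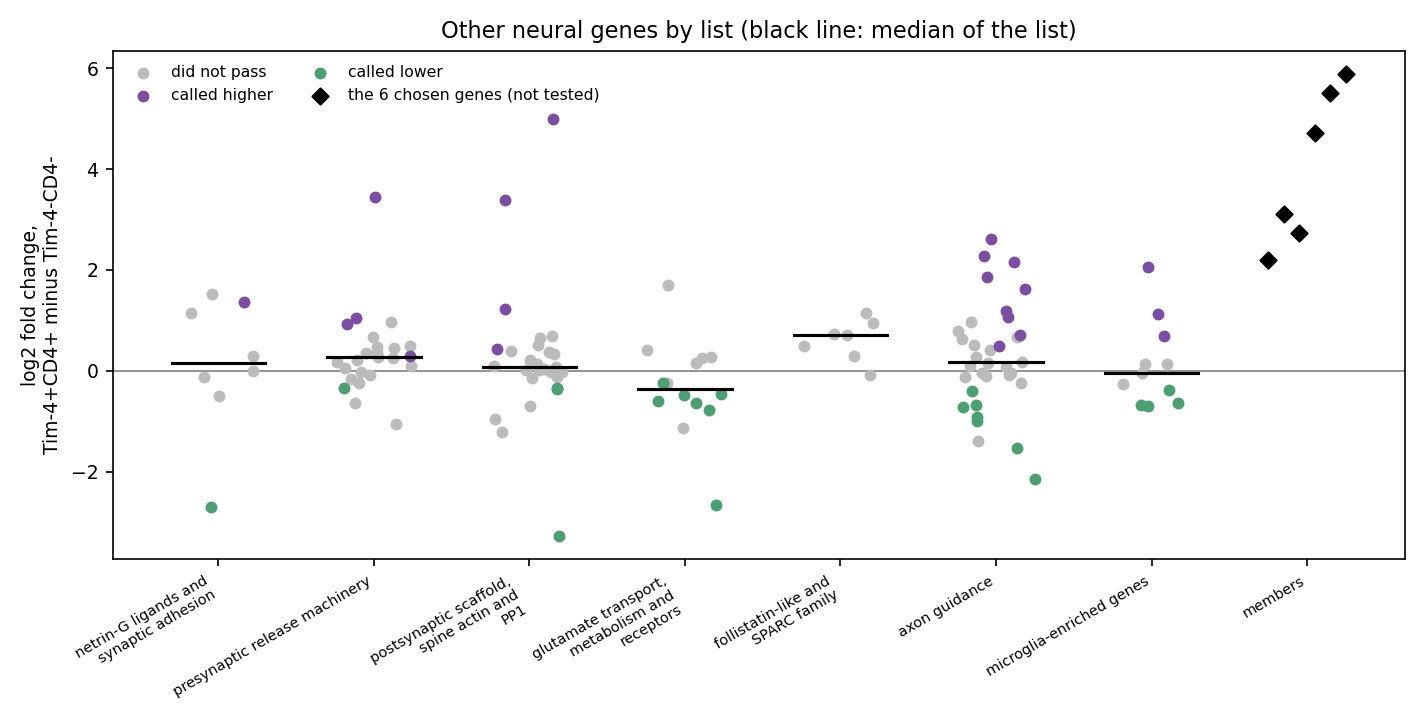
Fitted log2 fold change between Tim-4+CD4+ macrophages and the Tim-4-CD4- subset (vertical axis) of each tested gene by neural list, colored by whether it was called higher, called lower, or did not pass, with the median of each list as a black line and the 6 chosen genes as diamonds. In this comparison 7 of the 14 glutamate genes were lower and 0 were higher by edgeR, whereas 9 of the 34 axon guidance genes were higher and 7 lower.

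Of the adhesion genes, 17 of 29 were measured and 8 tested, and 1 rose and 1 fell in Tim-4+CD4+ compared with Tim-4-CD4- macrophages. *Cadm1*, an adhesion molecule of synapses and of immune cells, was at 0.174 CPM in monocytes and at 123, 265, and 316 CPM in the 3 subsets, and rose from the Tim-4-CD4- to the Tim-4-CD4+ subset (log2 1.10 ± 0.18, adjusted p = 6.1e-04, edgeR). The gene that fell was *Flrt3*, named after its values were seen, from 1.42 to 0.214 CPM (log2 -2.71 ± 0.45, adjusted p = 3.3e-04, edgeR). No adhesion gene passed between the CD4+ subsets. At an unadjusted p under 0.05, edgeR gave 0 higher and 1 lower, and DESeq2 called 0 and 1. Against monocytes, 6 rose and 2 fell in Tim-4+CD4+ macrophages, including the receptor phosphatase gene *Ptprs* (log2 0.83 ± 0.11, adjusted p = 4.6e-06, edgeR) and *Nlgn2*, a neuroligin of inhibitory synapses (0.86 ± 0.25, adjusted p = 0.0051).

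Presynaptic release genes were 38, of which 24 were tested, and 4 rose and 1 fell between Tim-4+CD4+ macrophages and the Tim-4-CD4- subset (16.7% and 4.17%). *Cplx2*, a complexin that controls vesicle fusion, was at 0 in monocytes and 1.19, 2.35, and 12.9 CPM in the subsets, an order shared with the 6 genes. It rose by 2.45 ± 0.32 on the log2 scale from the Tim-4-CD4+ to the Tim-4+CD4+ subset (adjusted p = 2.8e-04, edgeR). *Tspoap1*, which encodes a RIM-binding protein, rose in the same comparison (0.91 ± 0.20, adjusted p = 0.013), and these 2 were the only presynaptic genes to pass it, with none lower. For the lower direction edgeR gave 1 gene at an unadjusted p under 0.05, *Cacnb4*, and DESeq2 called 1. *Cacnb4*, a calcium channel subunit, had risen from the Tim-4-CD4- to the Tim-4-CD4+ subset (1.20 ± 0.26, adjusted p = 0.0056, edgeR). *Unc13b*, a vesicle priming gene, rose in Tim-4+CD4+ over Tim-4-CD4- macrophages (0.93 ± 0.15, adjusted p = 2.9e-04, edgeR), while its smaller difference between the Tim-4- subsets (0.52 ± 0.15, adjusted p = 0.04) was lost under several alternatives, with adjusted p from 0.0054 to 0.12. *Rab3d*, a secretory vesicle GTPase, fell from the Tim-4-CD4- to the Tim-4-CD4+ subset (-0.45 ± 0.08, adjusted p = 0.0017).

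Postsynaptic scaffold, spine actin, and phosphatase genes gave 4 higher and 3 lower of 27 tested in Tim-4+CD4+ compared with Tim-4-CD4- macrophages. *Tiam1*, which encodes an exchange factor for Rac in spines, moved against *Ppp1r9a*: it was at 282 CPM in monocytes and 24.4, 4.93, and 2.51 CPM in the subsets (log2 -3.28 ± 0.20, adjusted p = 5.1e-09, edgeR). *Camk2a*, the calcium/calmodulin kinase of spines, moved with it, at 0.378 CPM in monocytes and 6.75, 9.3, and 15.8 CPM in the subsets (1.23 ± 0.16, adjusted p = 3.8e-05). Its difference between the CD4+ subsets (0.76 ± 0.16, adjusted p = 0.011) was lost without Tim-4+CD4+ replicate 4, at an adjusted p of 0.053. *Rgs2*, a regulator of G protein signaling, rose slightly over Tim-4-CD4- macrophages (0.44 ± 0.08, adjusted p = 9.2e-04). *Baiap2*, an actin regulator of spines, was higher than in monocytes (4.18 ± 0.12), at 110.3, 116, and 112 CPM in the subsets. *Dlgap1* and *Dlgap3*, scaffold genes named after their values were seen, had 1, 3, 29, and 63 reads and 0, 1, 18, and 70 reads in the 4 populations, and both passed between Tim-4+CD4+ macrophages and the Tim-4-CD4- subset (adjusted p = 0.04 and 0.016, edgeR) on counts near the limit of detection. The call for *Dlgap1* was lost without Tim-4-CD4- replicate 2, 3, or 4, monocyte replicate 2 or 3, Tim-4-CD4+ replicate 4, or Tim-4+CD4+ replicate 4, and its adjusted p ran from 0.019 to 0.099 over the alternatives.

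The glutamate genes, the surroundings of *Slc1a3*, were counted like the other lists, and nothing is read from their shares. In Tim-4+CD4+ compared with Tim-4-CD4- macrophages, 11.3% of all genes tested rose and 11.9% fell. Of the 14 glutamate genes tested, 7 fell and 0 rose in this comparison by edgeR, with a median log2 difference of -0.35. For the higher direction there were also 0 at an unadjusted p under 0.05 and 0 by DESeq2. Among those that fell were *Gria3*, an AMPA receptor subunit, from 1.01 to 0.15 CPM (-2.67 ± 0.46, adjusted p = 4.6e-04, or -3.27 without Tim-4+CD4+ replicate 2), and the glutamine transporter genes *Slc38a2* (-0.78 ± 0.15, adjusted p = 8.8e-04) and *Slc38a1* (-0.64 ± 0.13, adjusted p = 0.0018). Between the CD4+ subsets edgeR called 0 in either direction, with 0 higher and 6 lower at an unadjusted p under 0.05, and DESeq2 called 0 higher and 1 lower. From the Tim-4-CD4- to the Tim-4-CD4+ subset, *Slc7a11*, the cystine/glutamate exchanger that exports glutamate, rose (0.89 ± 0.22, adjusted p = 0.017, edgeR; 0.00047 to 0.058 over the alternatives), while the mitochondrial aspartate aminotransferase gene *Got2* fell (-0.42 ± 0.08, adjusted p = 0.0031). The cytosolic form *Got1* was higher in Tim-4+CD4+ macrophages than in monocytes (4.96 ± 0.22) and was at 170.4, 184, and 204 CPM in the subsets.

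The follistatin-like and SPARC family, to which *Fstl4* and *Spock1* belong, had 7 other genes tested. By edgeR, 0 passed in either direction in any of the 3 comparisons between subsets. At an unadjusted p under 0.05, 0 were higher and 1 lower from the Tim-4-CD4- to the Tim-4-CD4+ subset, 3 higher and 0 lower from there to Tim-4+CD4+, and 2 higher and 0 lower over both steps. DESeq2 called 0 and 0, 3 and 0, and 1 and 0 in the same order. Against monocytes, 5 rose in Tim-4+CD4+ macrophages and 1 fell. *Sparc*, the matrix glycoprotein osteonectin, was at 0.185 CPM in monocytes and 14.4, 12.7, and 20.1 CPM in the subsets (6.74 ± 0.35 between Tim-4+CD4+ macrophages and monocytes, or 7.42 without monocyte replicate 2), and *Sparcl1* had no monocyte read and was at 5.51, 3.45, and 6.81 CPM, at least 192-fold higher in Tim-4+CD4+ macrophages. Both are also abundant in mesenchymal and endothelial cells, whose marker sums are given above.

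Of the axon guidance genes, 9 were higher and 7 lower of 34 tested (26.5% and 20.6%) in Tim-4+CD4+ compared with Tim-4-CD4- macrophages. *Slit3*, a secreted ligand of Robo receptors, was at 1.88, 4.26, and 11.6 CPM in the subsets and rose at the step to Tim-4+CD4+ (1.44 ± 0.21, adjusted p = 5.8e-04, edgeR). The semaphorin receptor gene *Plxnb1* was at 3.58, 9.7, and 17.3 CPM and the netrin receptor gene *Unc5b* at 14.6, 39.4, and 65.0 CPM, a stepwise order like that of *Lrrc4c* and *Rims3*. Their log2 differences between Tim-4+CD4+ macrophages and the Tim-4-CD4- subset were 2.27 ± 0.26 (adjusted p = 8.7e-06, edgeR) and 2.15 ± 0.17 (adjusted p = 1.1e-07). Between the CD4+ subsets, the step of *Plxnb1* (log2 0.84) did not pass the edgeR test, whereas that of *Unc5b* (0.72) did. *Unc5a* rose at the step to Tim-4+CD4+ (1.72 ± 0.31, adjusted p = 0.0033). The semaphorin gene *Sema4a* went the other way at each step, at 343 CPM in monocytes and 104, 45.5, and 23.6 CPM in the subsets (-0.95 ± 0.11 between the CD4+ subsets, adjusted p = 4.0e-05, edgeR). *Sema6d*, a transmembrane semaphorin, was at 0.199 CPM in monocytes and at 371, 593, and 602 CPM in the subsets.

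Microglia, the macrophages of the brain, served as a comparison list for nervous system macrophages. Of 11 tested genes, 3 were higher and 4 lower in Tim-4+CD4+ than in Tim-4-CD4- macrophages, with a median log2 difference of -0.04, and 9 were higher than in monocytes. *Olfml3* was at 132, 253, and 286 CPM and *Siglech* at 2.04, 3.15, and 8.46 CPM in the subsets (1.12 ± 0.10, adjusted p = 3.6e-07, and 2.06 ± 0.41, adjusted p = 0.0014, edgeR). *Cst3*, encoding cystatin C, fell (-0.70 ± 0.12, adjusted p = 3.1e-04). *Fcrls* fell between the CD4+ subsets, from 123 to 72.7 CPM (-0.76 ± 0.14, adjusted p = 0.0029, edgeR), where edgeR called 0 microglia genes higher, with 1 at an unadjusted p under 0.05 and 1 by DESeq2. *P2ry13* passed between the Tim-4- subsets (0.54 ± 0.16, adjusted p = 0.046), with adjusted p from 0.0016 to 0.12 over the alternatives.

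The genes whose levels were most like those of each of the 6 genes were sought over the 12 macrophage libraries, among 11789 genes with a mean of at least 1 CPM. The measure was Pearson's r of log2 CPM, which here mainly follows the 3 subsets and is given without a p. *Lrrc4c* was nearest to *Dennd2d* (r = 0.992), *2010016I18Rik* (0.986), and *Plpp5* (0.984), and *Rims3* to *St6galnac3* (0.993), *Oplah* (0.991), and *H2-M2* (0.991). *Ppp1r9a* was nearest to *Adcy3* (0.979), *Cdc42bpa* (0.977), and *Phactr1* (0.976), and *Slc1a3* to *Gpnmb* (0.992), *Txnip* (0.991), and *Spats2* (0.986). *Fstl4* was nearest to *Tmeff1* (0.976), *Serpinb6a* (0.974), and *Ocln* (0.973), and *Spock1* to *Klhl13* (0.991), *Clstn1* (0.983), and *Cp* (0.983). No gene was among the nearest of more than 1 of the 6. Among the 6, r ran from 0.804 for *Lrrc4c* with *Ppp1r9a* to 0.982 for *Rims3* with *Slc1a3*. With the monocytes included, the nearest gene changed to *Kynu* for *Lrrc4c* (0.997), *Gpr137b* for *Rims3* (0.969), *Gpx3* for *Slc1a3* (0.984), *Serpinb6a* for *Fstl4* (0.977), and *St6galnac3* for *Spock1* (0.986), while *Adcy3* stayed nearest to *Ppp1r9a* (0.984).

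A feature that most of the 6 share and that did not enter their choice is the length of the gene. The span from first to last exon was 1313498 bases for *Lrrc4c*, 487138 for *Spock1*, 423905 for *Fstl4*, and 262745 for *Ppp1r9a*, which is longer than 99.9%, 99.3%, 99.0%, and 97.5% of the tested genes. *Slc1a3* (76641 bases) and *Rims3* (41764 bases) were also above the median of 19072. Of the tested genes, 627 spanned at least 200000 bases, 4 of them among the 6 genes. Among the other 623, 6.1% were called higher at the step to Tim-4-CD4+, 3.05% at the step to Tim-4+CD4+, and 13.2% over both steps, where 4.52%, 2.07%, and 11.3% of all genes were. The shares called lower were 4.17%, 3.53%, and 13.3%, where 5.53%, 1.34%, and 11.9% of all genes were, and their median log2 differences were 0.05, -0.05, and 0.03. Against monocytes, 55.2%, 57.0%, and 57.1% of these long genes were called higher in the 3 subsets, with median log2 differences of 0.94, 1.06, and 1.06 against 0.08, 0.11, and 0.1 for all genes. The part of gene length in the differences between the 6 genes' levels in macrophages and monocytes was not tested.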

How the data were processed

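RNA from 15 pools of sorted cells was read as strand-specific mRNA libraries. The authors used Trimmomatic 0.36 to trim the reads, STAR to place them on GRCm38.p4, and HTSeq 0.6.1p1 to count the uniquely mapped ones on the genes of GENCODE vM11. The strand setting of the counting is not given in the sources used here. The raw counts they deposited are whole numbers per gene and carry no normalization. A further 15 columns of per-sample values, the same counts divided by size factors, were not used. No row of the table had fewer than 16 reads in total.

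The counts were fitted as 1 model over the 15 libraries with the quasi-likelihood test of edgeR 4.0.16 (R 4.3.3), after filterByExpr by population and TMM scaling, without a replicate block. The 6 pairwise comparisons were adjusted by the Benjamini-Hochberg method over all 15802 genes tested, with a threshold of 0.05. Where adjusted p-values are printed, they are from this fit unless DESeq2, a library left out, or another alternative is named beside them. CPM and likeness used a prior count of 2 on the log2 scale only. A zero in a library allows up to 3 counts, and 95% intervals are exact Poisson intervals. Both describe counting error alone, because no molecular identifiers were read. The p-values measure the spread between libraries, each a pool, taken as unpaired. The labels do not say whether the subsets were sorted from the same pools of mice, and no such pairing was in the fit.

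The 6 genes and all gene lists were chosen with earlier results of these data known. Named genes are the 6, their paralogs, and, of each list and for each comparison of subsets and for Tim-4+CD4+ macrophages against monocytes, up to 3 genes that passed the test, averaged 1 CPM or more over all libraries, and had the largest change, plus those said to be named after their values were seen. Paralogs and listed genes that are not mentioned with a value were not analysed here or lie within the counts given. Gene positions were taken from GENCODE M21 by identifier, of which 19421 matched, and promoter windows from RefSeq, in which all 6 genes were found. Alternatives were DESeq2 1.42.0, other scalings and filters, only the compared populations, replicate blocks, and leaving out each library in turn. The scripts were tested on simulated data.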

Additional observations from a re-analysis of the deposited data

Results flagged for a closer look

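Among 165 groups of 4 libraries, of the 6 genes, their paralogs, the named genes, and the marker sums, 8 held a library whose gap to the nearest of the others was past the 95% critical value of Dixon's ratio, where chance gives about 1 in 20. *Spock1* was at 1.09 CPM in Tim-4-CD4- replicate 4, against 0.31 to 0.388 in the other 3 libraries of the subset. Without this library the log2 difference between Tim-4-CD4+ macrophages and the Tim-4-CD4- subset was 3.2 in place of 2.67. *Plxnb1* was at 6.2 CPM in Tim-4-CD4- replicate 2, against 2.43 to 2.87. *Nlgn2* was at 2.48 CPM in the same library, against 3.56 to 3.62. *Slc38a1* was at 132 CPM in Tim-4-CD4- replicate 1, against 116 to 117, and *Ptprs* was at 112 CPM there, against 88.6 to 92.2. *Olfml3* was at 317 CPM in Tim-4+CD4+ replicate 1, against 274 to 277. The summed neuron markers were at 6.77 CPM in Tim-4-CD4- replicate 1, against 0.854 to 1.49, and the summed glia markers were at 14.3 CPM in Tim-4-CD4+ replicate 3, against 18.1 to 18.8.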

How the results depend on the processing

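Over 23 alternatives each, no log2 difference of the 6 genes changed sign. That of *Slc1a3* between Tim-4+CD4+ macrophages and the Tim-4-CD4- subset was 4.71, and 5.34 without Tim-4-CD4- replicate 2, and that of *Fstl4* was 5.51, and 6.11 without Tim-4-CD4- replicate 4. Genes higher in Tim-4-CD4+ than in Tim-4-CD4- macrophages numbered 715, and 1088 with DESeq2 and 1114 with only the populations compared. Leaving out each library gave 484 to 1036 higher and 549 to 1167 lower (874 with all libraries, 549 without Tim-4-CD4+ replicate 4). From the Tim-4-CD4+ to the Tim-4+CD4+ subset DESeq2 gave 555 higher and 362 lower, in place of 327 and 212, and 12 and 9 neural list genes in place of 6 and 5. Neural list genes lower in Tim-4-CD4+ than in Tim-4-CD4- macrophages were 9 to 16 with each library left out (10 with all, 16 without Tim-4+CD4+ replicate 1). Restricted to means from 1 CPM upward, 46, 46, and 47 neural list genes rose over monocytes in the 3 subsets in place of 73, 76, and 79, when 82 of these genes and not 125 were tested. Calls of genes named by the rule were lost in 28 cases, of *Unc13b*, *Slc7a11*, *P2ry13*, and *Camk2a*, and none changed direction. The paralogs, partners, and other genes named after their values were seen were run through the same alternatives later, which lost 34 calls (*Slc1a5*, *Ppp1cb*, *Dlgap1*) and gained 2 (*Slc1a2*, *Ntng2*), with no call reversed. Leaving *Elavl4*, *Erbb3*, *Gpm6b*, *Esam*, and *Siglecf* out of marker sums was also chosen after seeing the data. Neither numbering of the replicates paired the libraries throughout. Deviations of same-numbered libraries correlated at -0.123 to 0.134 by the titles and at -0.089 to 0.161 by the sample descriptions, which number the Tim-4-CD4+ libraries differently, and 0 and 5 of 12 libraries correlated best with their own number. With a replicate block, 576 (titles) or 693 (descriptions) genes were higher and 718 or 882 lower in Tim-4-CD4+ than in Tim-4-CD4- macrophages. Some libraries that differ in number by both systems correlated more, at up to 0.24 for Tim-4-CD4- replicate 2 with Tim-4-CD4+ replicate 3. Whether the subsets share pools under another pairing was not tested, and the main fit takes the libraries as unpaired. Depth limits *Slc1a3* and *Fstl4* in the Tim-4- subsets, where a library held few reads.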
